A study of Mus musculus with 3 samples.

Results

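Solute carriers are membrane proteins that move sugars, amino acids, ions, bile acids, vitamins and drugs across membranes. The genes described here are the protein-coding mouse genes whose symbol is Slc, a family number from 1 to 24 and a letter. The rule gave 196 genes in 23 families, of the 21775 protein-coding genes placed on the mouse chromosomes. The organic anion transporters named Slco were not counted among them. The rule also takes in 4 genes whose products are not carriers but are named after one: Slc4a1ap, Slc7a6os and the scaffold protein genes Slc9a3r1 and Slc9a3r2.

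All libraries came from intestinal cells of C57BL/6 mice aged 6 weeks with the genotype setd2f/f, meaning that both Setd2 alleles are floxed. One antibody (ab9050) was raised to histone H3 trimethylated at lysine 36 (H3K36me3) and another (LS-C341561) to SETD2. DNA sequenced without any antibody, the input, was the control. The labels name no Cre, and each of the 3 libraries is a single sample, so no value here has a replicate and nothing was compared between conditions. The data are 1 list of called peaks for each antibody, with 1806 H3K36me3 peaks and 186 SETD2 peaks. The lists give no read numbers, so the depth is unknown.

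In the intestine, absorptive cells carry one set of solute carriers on the brush border, which faces the gut lumen, and another on the basolateral side, which faces the blood. Nutrients enter through the former and leave through the latter, while sodium, proton and bicarbonate carriers set the gradients that drive the flow. SETD2 is the enzyme that trimethylates H3K36, and the mark lies over the bodies of genes that are being transcribed.

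H3K36me3 peaks touched few solute carrier genes, and about as large a share of them as of all genes. A peak overlapped the span of 9 of the 196 genes by at least 1 bp (4.59%, exact Clopper-Pearson 95% interval 2.12 to 8.54), and 187 had none. Of all protein-coding genes, 4.51% were touched in the same way (983 of 21775). The 9 genes were the ascorbate transporter Slc23a2, the ion exchangers Slc24a3, Slc9a8 and Slc9a9, the bicarbonate cotransporter Slc4a4, the amino acid carriers Slc7a1, Slc7a7 and Slc16a10, and the bile acid carrier Slc10a1. The SETD2 list touched 1 of the 196 genes, the urea transporter Slc14a2 (0.510%, exact interval 0.0129 to 2.81), where the share of all protein-coding genes was 0.294% (64 genes). No solute carrier gene held both kinds of peak, but with only 1 touched by SETD2 little overlap was possible. None of the 9 held more than 1 H3K36me3 peak. More than 1 per gene was uncommon throughout, with 1051 pairs of peak and gene over the 983 touched protein-coding genes. These intervals treat genes as independent and cover counting error only, and the absence of a called peak from a gene does not mean that the mark is absent there.

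Sequences upstream of a start site are shown for 2 of the 9 genes, Slc10a1 and Slc16a10, because both have a start listed within 16 bp of the edge of the gene span and because they differ in base composition. Each is the 250 bases before the start, read 5′ to 3′ on the gene's own strand (minus in both), from RefSeq, build GRCm38.p6. Capitals mark CG dinucleotides. The windows are chr12:80968706-80968955 for Slc10a1 and chr10:40142255-40142504 for Slc16a10.
Slc10a1: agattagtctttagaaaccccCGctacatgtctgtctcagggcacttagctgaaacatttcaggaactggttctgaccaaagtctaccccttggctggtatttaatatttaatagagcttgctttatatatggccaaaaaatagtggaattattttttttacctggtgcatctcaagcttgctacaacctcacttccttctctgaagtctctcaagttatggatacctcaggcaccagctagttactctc
Slc16a10: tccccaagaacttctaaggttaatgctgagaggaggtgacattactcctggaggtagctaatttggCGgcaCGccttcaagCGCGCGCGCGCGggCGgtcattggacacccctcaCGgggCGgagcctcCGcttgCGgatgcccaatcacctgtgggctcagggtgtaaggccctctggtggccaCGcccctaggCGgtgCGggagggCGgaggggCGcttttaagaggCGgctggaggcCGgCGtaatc

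The Slc10a1 window held 1 CG and was 40.8% G or C, and 15.1% of the 21262 protein-coding start windows had as few CGs or fewer. The Slc16a10 window held 21 CGs and was 64.4% G or C, at or above 80.5% of all windows in its number of CGs. The marked genes thus include a start poor in CGs and one rich in them. The sequence TATAAA, the motif of the TATA box, occurred in the Slc10a1 window, on the opposite strand, 128 bases before the start. This is a match of sequence alone and was not taken as a TATA box of the gene. The sequence occurs on either strand in 11.6% of all windows. AGATAA, bound by GATA factors (8.81% of all windows), and CAAAGTCCA, bound by HNF4A (0.390%), were searched for on both strands and were in neither sequence. Over the 147 solute carrier genes with an entry in the promoter table, 186 windows reaching 50 bases past the start were examined, and 0 were touched by a peak of either antibody. Such windows were rarely touched in any gene: of the 21262 windows of protein-coding genes, 0.118% were touched by an H3K36me3 peak and 0.00470% by a SETD2 peak.

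Among the amino acid carriers, Slc7a7 encodes the light chain that pairs with the Slc3a2 protein to export lysine and arginine through the basolateral membrane. Its H3K36me3 peak lay at chr14:54397633-54398122 with a score of 34.6, the caller's own value by which peaks are ranked within a list. The peak was 490 bp wide, the narrowest of the 9, and stood 22.2 kb from the start of a 50.6 kb gene. Slc7a1 encodes a widely expressed carrier of arginine and lysine. Its peak, at chr5:148364649-148365483, was 835 bp wide, the widest of the 9, and scored 36.9. It lay near the middle of the gene, at 48.1% of its 72.5 kb. Slc16a10 encodes the basolateral carrier of aromatic amino acids, although its family is that of the monocarboxylate transporters. Its peak at chr10:40121255-40121871 had the lowest score of the 9, 31.0, which ranked 1492 in the list of 1806. Of the 51 genes of families 1, 3, 6, 7 and 15, which carry amino acids, peptides and neurotransmitters, Slc7a1 and Slc7a7 were touched (3.92%, beside 4.51% of all genes). The 51 include Slc7a6os, whose product is not a carrier.

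The families of ion carriers (4, 8, 9, 12 and 24) held 4 of the 9 peaks, among 43 genes (9.30%, exact interval 2.59 to 22.1, beside 4.51% of all genes and 7.53% of those from 30 to 100 kb). These were also long genes, with a median span of 54.7 kb against 17.2 kb for all protein-coding genes. Slc4a4, Slc9a9 and Slc24a3 each span more than 200 kb, a length at which 19.6% of all protein-coding genes were touched. The 43 genes include Slc4a1ap, Slc9a3r1 and Slc9a3r2, whose products are not carriers. Slc4a4 encodes the electrogenic sodium bicarbonate cotransporter of basolateral membranes. Its peak, at chr5:88796642-88797341 with a score of 35.5, lay 3.13 kb from the start of the annotated span of 446 kb. That edge of the span is not a start in the promoter table, whose nearest entry lies 93.4 kb into the span and 90.3 kb past the peak.

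Slc9a8 encodes a sodium-proton exchanger reported in the intestinal brush border and inside cells. Its peak, at chr2:167436308-167437013, scored 35.2 and lay 15.1 kb into a gene of 55.4 kb. Slc9a9 encodes a sodium-proton exchanger of endosomes and is the longest of the 196 genes (561 kb). Its peak, at chr9:94873450-94874001, scored 35.4 and lay 204 kb from the start. Slc24a3 encodes a potassium-dependent sodium-calcium exchanger and is the second longest (474 kb). Its peak, at chr2:145587854-145588572, scored 39.3 and lay furthest along its gene, at 88.6% of the span. The bicarbonate, exchanger and cotransporter genes without a peak include Slc9a3 and Slc9a2, the main sodium-proton exchangers of the brush border, and Slc12a2, the basolateral sodium-potassium-chloride cotransporter.

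The remaining H3K36me3 peaks lay in a vitamin carrier and a bile acid carrier. Slc23a2 encodes a sodium-dependent ascorbate transporter found in most tissues. Its peak, at chr2:132079817-132080631, had the highest score of the 9, 43.0, ranking 148 in the list, and stood at 70.1% of a 92.8 kb span. Slc10a1 encodes the sodium-dependent bile acid carrier known from the blood-facing side of liver cells. Its peak, at chr12:80967048-80967563 with a score of 32.7, lay 1.40 kb from the start of the gene and 0.774 kb from a second listed start. With a span of 15.5 kb it was the shortest of the 9 genes. Slc10a2, the brush border bile acid carrier of the ileum, held no peak.

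Slc14a2, which encodes urea transporters known from the kidney medulla, was the gene with a SETD2 peak. The peak lay at chr18:78197919-78198694, was 776 bp wide and scored 111, ranking 19 among the 186 SETD2 peaks. It stood 52.2 kb from the nearer end of a 451 kb gene, the third longest of the 196. The nearest H3K36me3 peak was 767 kb away. Conversely, the SETD2 peak nearest to a marked solute carrier gene's H3K36me3 peak was 552 kb away, at Slc9a9, and the furthest such distance was 27793 kb, at Slc9a8. The called peaks of the mark and the enzyme therefore did not meet at any of these genes.

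**Figure D1:**
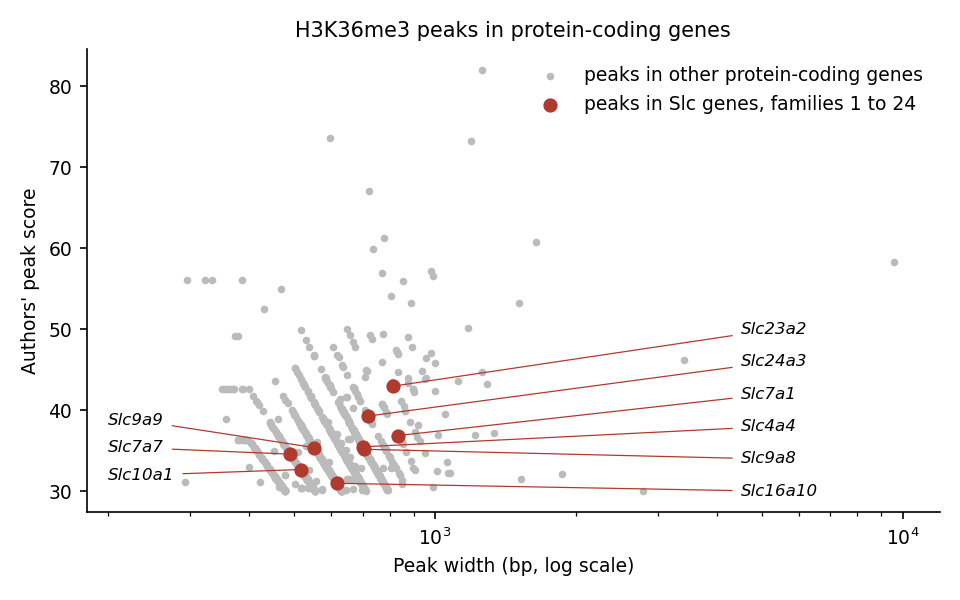
Each point is an H3K36me3 peak that touches a protein-coding gene, with its width in bp on a log axis against the authors' score. The 9 peaks in solute carrier genes, in red and labelled, score 31.0 to 43.0 and lie among the grey points of the other genes, of which the highest score is 82.0.

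The 9 peaks lay within the range of their list in score and width. Their median score was 35.4, beside 33.7 for the 1034 H3K36me3 peaks that touch protein-coding genes, and their median width was 700 bp beside 608 bp. The widths ran from 490 to 835 bp, so each peak covered a small stretch of its gene. No peak of the 9 overlapped a second annotated gene of any kind, so each can be assigned to its gene alone.

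**Figure D2:**
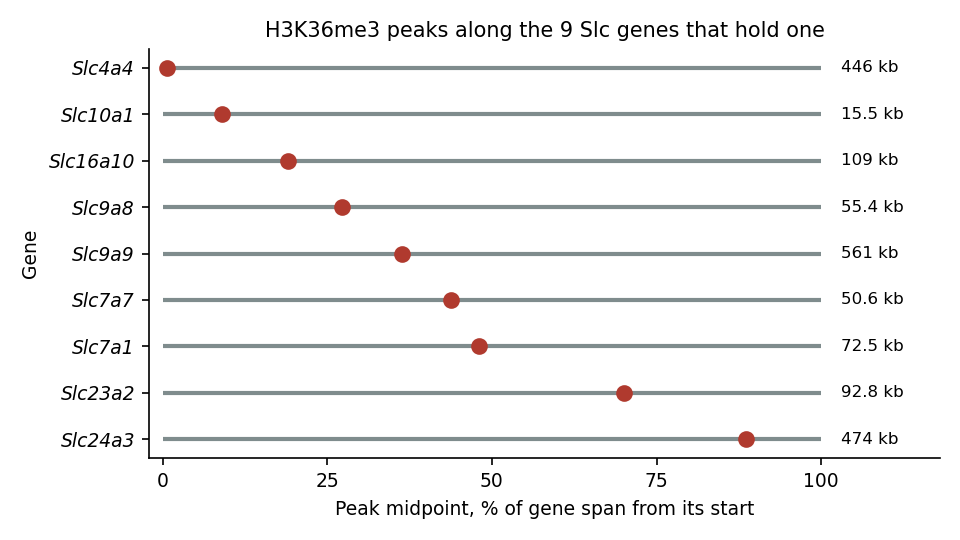
Each grey line is one of the 9 marked genes, scaled to its span (length in kb at the right) and drawn from its start at the left, and the red point is the midpoint of its H3K36me3 peak in percent of the span. The points run from under 1% in Slc4a4 to 88.6% in Slc24a3, with 7 of the 9 before the middle.

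Along the genes the peaks took no common position. Measured from the start of the span, 7 of the 9 lay before the middle (77.8%), beside 51.1% of the 827 peak and gene pairs whose midpoint lies inside a protein-coding gene of known strand. The median distance from the start was 22.2 kb, and 23.9 kb over the 840 pairs of known strand. With 9 peaks this difference in share was not tested. The lowest distance was the 1.40 kb of Slc10a1 and the highest the 420 kb of Slc24a3, whose peak was nearer to the end of the gene.

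**Figure D3:**
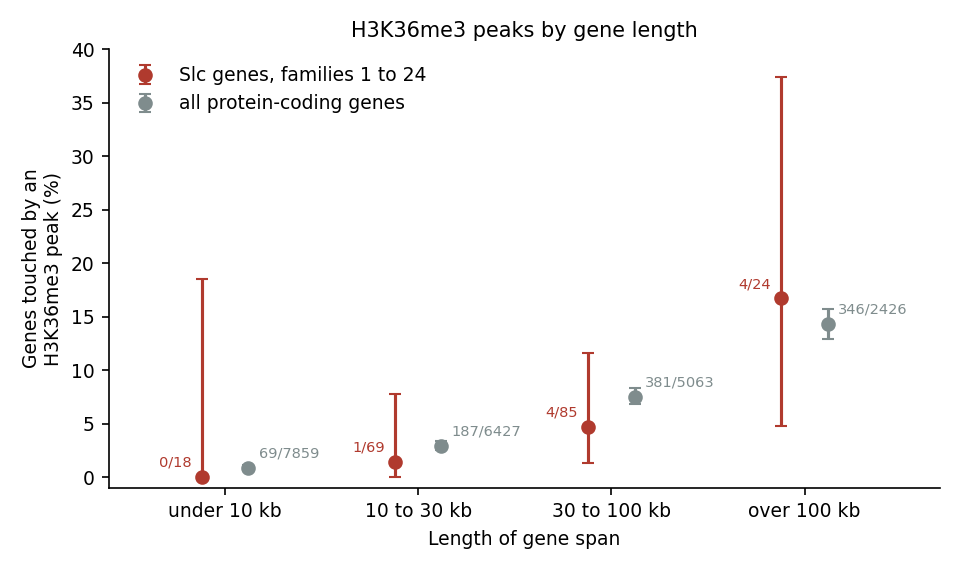
Share of genes touched by an H3K36me3 peak (percent) in 4 classes of span length, for the 196 solute carrier genes (red) and all protein-coding genes (grey), with exact 95% intervals and the counts beside each point. The red intervals include the grey points in all 4 classes.

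Solute carrier genes are long, and gene length moved with the share of genes touched. Their median span was 34.8 kb, and the 9 with an H3K36me3 peak had a median of 92.8 kb (15.5 to 561 kb), beside 33.7 kb for the 187 without. Under 10 kb, 0 of 18 solute carrier genes were touched (exact upper limit 18.5%), beside 0.878% of all protein-coding genes of that length. From 10 to 30 kb 1 of 69 was touched (1.45%, 0.0367 to 7.81), beside 2.91%. From 30 to 100 kb 4 of 85 were (4.71%, 1.30 to 11.6), beside 7.53%. Over 100 kb 4 of 24 were (16.7%, 4.74 to 37.4), beside 14.3%. The shares were below those of genes of like length in the 3 shorter classes and above in the longest, in each case within the counting interval. Counted per length, the merged spans of the 196 genes cover 11.7 Mb and held 9 H3K36me3 peaks, or 0.769 per Mb, beside 1034 peaks in the 1030 Mb spanned by all protein-coding genes.

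Of the 10 solute carrier genes over 200 kb, 3 held an H3K36me3 peak (exact interval 6.67 to 65.2%): Slc9a9, Slc24a3 and Slc4a4. Of all 989 protein-coding genes of that length, 19.6% did, which lies within the interval. Those without were Slc14a2, Slc8a1, which encodes a sodium-calcium exchanger of heart and other muscle, the inositol transporter gene Slc2a13, the bicarbonate carrier gene Slc4a10, the retinal and neuronal exchanger gene Slc24a2, Slc22a22 and Slc10a7. For SETD2, the class over 100 kb held the single touched gene (1 of 24, 4.17%, exact interval 0.105 to 21.1), beside 1.24% of all genes of that length.

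**Figure D4:**
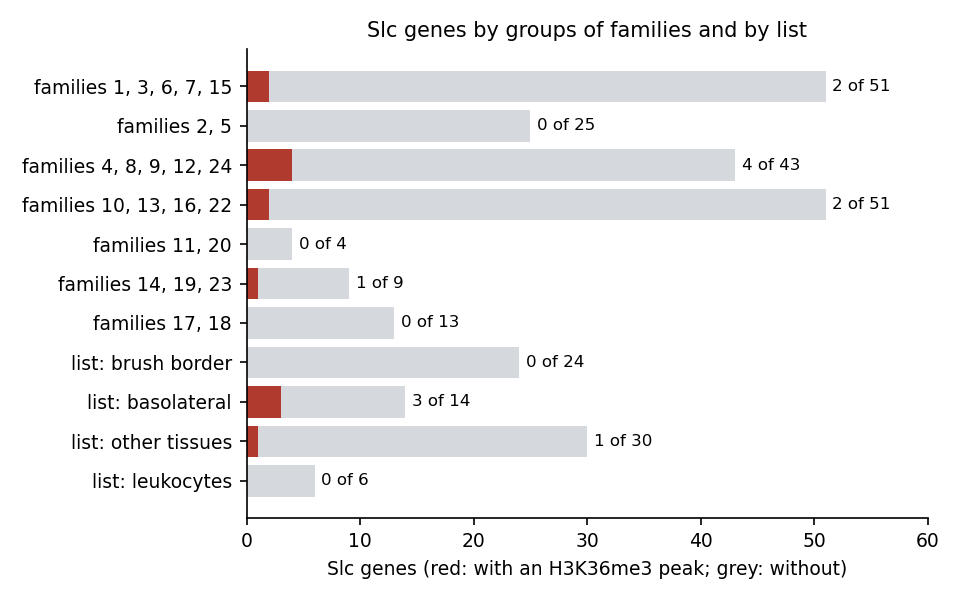
Number of solute carrier genes with (red) and without (grey) an H3K36me3 peak, by groups of families and in 4 lists of genes by site of expression. Genes can stand in a family group and in a list; families 2 and 5 (0 of 25) and the brush border list, which leaves out Slc9a8, (0 of 24) have no red bar, and the basolateral list has 3 of 14.

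Carriers of the brush border and of the basolateral side were then counted from lists drawn from textbook knowledge. The lists were chosen with earlier results of these data known, so their shares are a description and not an independent comparison with all genes. Of 24 brush border genes, 0 held an H3K36me3 peak (exact upper limit 14.2%), beside 4.51% of all genes. The list does not hold Slc9a8, and with it the count is 1 of 25 (exact interval 0.101 to 20.4%). They include the sodium-glucose cotransporter Slc5a1, the fructose transporter Slc2a5, the peptide transporter Slc15a1 and the iron transporter Slc11a2. The amino acid carriers Slc1a1, Slc3a1, Slc6a14, Slc6a19, Slc6a20a and Slc7a9 and the exchangers Slc9a2 and Slc9a3 belong to them too, with the bile acid carrier Slc10a2. The list is completed by the vitamin carriers Slc5a6, Slc19a1, Slc19a3 and Slc23a1, the phosphate carriers Slc20a1 and Slc20a2, the carnitine carrier Slc22a5, and the organic acid carriers Slc5a8, Slc5a12, Slc13a2 and Slc16a1.

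Of 14 basolateral genes 3 held a peak: Slc4a4, Slc7a7 and Slc16a10 (21.4%, exact interval 4.66 to 50.8). The share of all protein-coding genes was 4.51%, just below the interval. By length it was 2.91% from 10 to 30 kb, 7.53% from 30 to 100 kb and 14.3% over 100 kb. The list was chosen with earlier results known, so its interval is no test against any of these shares. The other 11 include the glucose transporters Slc2a1 and Slc2a2, the amino acid subunits Slc3a2 and Slc7a8, the ion carriers Slc4a2, Slc4a7, Slc8a1, Slc12a2 and Slc12a7, and the thiamine carrier Slc19a2. The 2 lists differ in gene length, with a median span of 27.4 kb for the brush border and 56.8 kb for the basolateral list. No brush border gene is longer than 100 kb, while the basolateral list has 3 such genes, of which Slc4a4 and Slc16a10 held a peak. From 30 to 100 kb, 1 of 7 basolateral and 0 of 11 brush border genes were touched. Slc9a8, at 55.4 kb, also falls in that class. The part of length in the difference between the lists was not tested.

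Carriers known from other tissues, such as the astrocyte glutamate transporter Slc1a2, the dopamine transporter Slc6a3 and the kidney cotransporters Slc12a1 and Slc12a3, gave 1 of 30 with a peak (3.33%, 0.0844 to 17.2), which was the liver gene Slc10a1. Carriers of leukocytes gave 0 of 6 (exact upper limit 45.9%, beside 4.51% of all genes). The SETD2 list touched 0 genes of these 4 lists, beside 0.294% of all genes. As a check of the label, H3K36me3 peaks touched 2 of 18 general markers of intestinal epithelium, Krt19 and Elf3 (11.1%, exact interval 1.38 to 34.7). They touched 0 of 10 markers of leukocytes and 0 of 10 of stroma, muscle and endothelium (exact upper limit 30.8% for each). The share of all genes, 4.51%, lies within each of these intervals. Defining epithelial genes such as Vil1, Epcam and Cdx2 were among those without a peak, so these lists cannot show which cells the chromatin came from.

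By family, 0 of the 25 genes of families 2 and 5, which hold the glucose and fructose transporters beside carriers of vitamins, organic acids, iodide and choline, had an H3K36me3 peak (exact upper limit 13.7%, beside 4.51% of all genes). Families 17 and 18, which hold vesicular transmitter carriers and anion carriers of the cell surface, gave 0 of 13. Families 11 and 20, of metal and phosphate carriers, gave 0 of 4. These groups are too small for a count of 0 to stand apart from the share of all genes. Of the 51 genes of families 10, 13, 16 and 22, which carry bile acids, other organic acids and drugs, 2 held a peak, Slc10a1 and Slc16a10 (3.92%, exact interval 0.478 to 13.5, beside 4.51% of all genes). All 25 genes of family 22, the organic cation and anion transporters, were without one (exact upper limit 13.7%, which is above the share of all genes). Of the 9 genes of families 14, 19 and 23, which include the urea, folate, thiamine and ascorbate carriers, Slc23a2 held an H3K36me3 peak and Slc14a2 a SETD2 peak. In all, the 9 marked genes fell in 7 of the 23 families and on 6 of the 20 chromosomes that hold members, and 0 of the 7 genes on chromosome X were among them. On the autosomes 962 of 20556 protein-coding genes were touched (4.68%), beside 983 of 21775 in all (4.51%). The 7 genes on chromosome X are too few for a count of 0 to stand apart from these shares.

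A few more genes had an H3K36me3 peak close by but outside the span. Slc22a6, an organic anion transporter gene of the kidney, had one 2.14 kb past its end (chr19:8630436-8631046, score 31.3). Slc2a1, the widely expressed glucose transporter gene, had one 2.96 kb before its start (chr4:119105307-119105783, score 30.1). Neither peak touched another protein-coding gene, and no further solute carrier gene without a peak in its span had one within 10 kb. The next nearest were Slc19a2, with a peak 11.6 kb away inside Ccdc181, and Slc5a4b, with one 13.3 kb away.

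Among the solute carriers outside the rule, 11 of the 179 genes of families 25 and above were touched by an H3K36me3 peak (6.15%, exact interval 3.11 to 10.7). Of the Slco genes, 0 of 14 were touched (exact upper limit 23.2%). The share of all protein-coding genes, 4.51%, lies within both intervals. The families from 25 on include the mitochondrial carriers and the nucleotide sugar transporters, and their median span was 22.5 kb. Their merged spans held 1.51 H3K36me3 peaks per Mb, beside the 0.769 of families 1 to 24. The intervals of the shares overlap, and the difference in peaks per Mb was not tested. SETD2 peaks touched 0 of these 179 genes (exact upper limit 2.04%, beside 0.294% of all genes).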

How the data were processed

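Chromatin was immunoprecipitated from sonicated nuclei, per the labels' protocols. The authors deposited, for each of 2 antibodies, a peak list with a score per peak, called against the input per the names of the lists and peaks (MACS). The scale of the score is not stated; its lowest value, 30, is what minus 10 times log10 of 0.001, a setting in the lists' names, would give. The submitters' processing notes name CASAVA 1.8 and hg19. Neither the aligner nor the caller's version is given in the sources used here. The coordinates were read as mouse GRCm38: 57.3% of H3K36me3 peaks touched a protein-coding gene as deposited, and 43.0% and 42.5% when moved by 1000 kb either way. The SETD2 list showed no such fall (33.3% against 39.8% and 32.8%), so its build rests on that of the other list.

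Gene spans came from RefSeq GRCm38.p6. Left out were 340 genes whose starts lie below 3 Mb on chromosomes other than Y, which are on patch scaffolds. Strand came from the promoter table, which matched 147 of the 196 genes; exons and introns were not assigned. A gene counted as touched at 1 bp of overlap. Counts and exact intervals were computed with Python 3.11.15, pandas 2.3.3 and scipy 1.17.1, and the overlap counting was tested on planted peaks. No comparison was tested for significance: gene length was handled by classes of span. Every gene touched, every brush border and basolateral gene, and every gene with a peak within 10 kb is named, except 1 item that is not reported here. The members and lists were chosen with earlier results of these data known.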

Additional observations from a re-analysis of the deposited data

How the results depend on the processing

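The number of solute carrier genes with an H3K36me3 peak (9) was the same when the peak midpoint or 50% of the peak had to lie in the span, on autosomes alone, with Slco genes added, and without the 4 genes that are not carriers, a setting added after the data were seen. It was 11 with spans widened by 5 kb (5.61% of the 196, beside 5.39% of all genes), 7 with scores at or above the median (3.57%, beside 2.41%), and 7 of 170 among genes that overlap no other protein-coding gene (4.12%, beside 4.34%). With scores at or above the upper quartile, 37.0, it was 2, Slc23a2 and Slc24a3 (1.02%, beside 1.19% of all genes). With all Slc families counted it was 20 of 375 (5.33%, beside 4.51%). The SETD2 count was 1 in all of its settings. The basolateral and brush border lists together gave 3 of 38 (7.89%, exact interval 1.66 to 21.4, beside 4.51% of all genes). With spans widened by 5 kb they gave 4 (10.5%, beside 5.39%), which added Slc2a1. With scores at or above the median they gave 2 (5.26%, beside 2.41%), which left out Slc16a10. With Slc9a8 added to the brush border list, after the data were seen, they gave 4 of 39 (10.3%, beside 4.51% of all genes). The median distance of the peaks from the gene start and from the nearer end was 22.2 kb in both cases. For the 7 of 9 peaks before the middle the 2 distances are the same, so this equality is no check of stability. No paired analysis was possible because each antibody has 1 library. The unknown depth limits every count of genes without a peak.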

Other observations

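Scores and widths of H3K36me3 peaks went together in steps, which shows as parallel bands in the plot of score against width. Of the 1806 peaks, 1635 had exactly the width of another peak, and 1208 had both the width and the score of another. The 15 other peaks as wide as that of Slc9a9 (552 bp) took 4 different scores, and 3 of them had its score of 35.39. The 9 others as wide as that of Slc16a10 (617 bp) took 4 scores, and 6 of them had its score of 30.96. Of the 6 others as wide as that of Slc4a4 (700 bp), 5 had its score of 35.54. In all, 5 of the 9 peaks in solute carrier genes shared width and score with a peak elsewhere.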
